A study of Rattus norvegicus with 50 samples.

Results

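The 8 CXC chemokines Cxcl1, Cxcl2, Cxcl3, Cxcl5, Cxcl9, Cxcl10, Cxcl11 and Cxcl16 were followed in rat lungs after inhalation of a titanium dioxide aerosol. They were taken by gene name from the array annotation, though the list was chosen with earlier results of these data known. All 8 passed the intensity filter and were among the 25208 genes tested. All rats were male F344 rats, an inbred strain, aged 12 weeks at the start. Exposed rats breathed a nose-only aerosol of nanostructured TiO2 P25 at 10 mg/m3, for 6 hours on each of 5 days in a week, over 4 weeks, and control rats breathed air in the same way. Lungs were taken as soon as exposure stopped (D0) or after 3, 28, 90 or 180 more days (named D3, D28, D90, D180), from 5 control and 5 exposed rats at a time, which gave 10 groups and 50 arrays, 1 per rat. RNA came from a whole lung lobe, so immune, epithelial and vascular cells were measured as 1 mixture, and a change in the number of cells of a type cannot be told apart from a change in RNA per cell.

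CXC chemokines are small secreted proteins that direct white blood cells by binding G protein-coupled receptors. Cxcl1, Cxcl2, Cxcl3 and Cxcl5 bind Cxcr2 and draw neutrophils, and in lung they are made by alveolar macrophages and epithelial cells under the control of NF-kappaB. Cxcl9, Cxcl10 and Cxcl11 bind Cxcr3 on activated T cells and NK cells and are induced by interferons. Cxcl16 is made as a membrane-bound protein, is shed by the proteases Adam10 and Adam17, and binds Cxcr6.

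Members of both ligand sets were over-expressed in exposed lungs at D0 and D3, and none was called at D28. At D0, 5 of the 8 members were over-expressed at 1.5-fold or more with an adjusted p under 0.05: Cxcl1, Cxcl2, Cxcl5, Cxcl10 and Cxcl11. This compares with 2.77% of all genes called higher at D0. At D3 Cxcl3, already 1.37-fold higher at D0, also passed the fold limit, giving 6 of 8 against 1.98% of all genes. No member was called by limma at D28 (1.33% of all genes called in either direction) or at D180 (0.325%), where 5 and 1 of the 8 had an unadjusted p under 0.05. At D90 the 1 call was Cxcl1, which was lower in exposed rats (0.135% of all genes called lower). The median exposed minus control difference of the 8 members on the log2 scale was 1.45 at D0 and 1.34 at D3, fell to 0.33 by D28 and was -0.16 at D90 and 0.20 at D180, whereas the median of all genes stayed between -0.01 and 0.00. Groups that did not overlap were found for 5, 6, 3, 2 and 1 members from the earliest to the latest day, against 8.53%, 6.78%, 3.8%, 3.82% and 4.22% of all genes. Signal well above background was found on 68.7% to 84.5% of the 58717 spots with a gene, and exposed replicates 2 and 4 of D0 held 4142 or fewer distinct signals where every other array held at least 62703, and without this pair no call of a member changed.

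**Figure D1:**
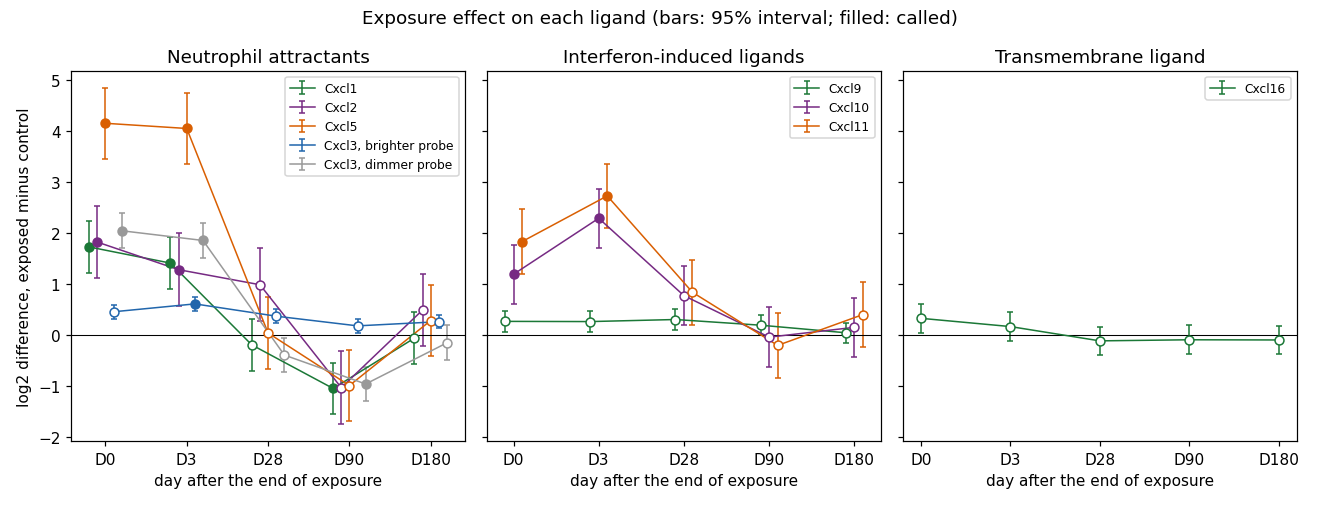
Exposed minus control difference (log2 scale, y axis) of each chemokine at each day after exposure (x axis), in a panel per ligand set, with 95% confidence intervals from the fit across all 50 arrays as error bars and filled points for called differences. The neutrophil attractants and Cxcl10 and Cxcl11 lie above 0 at D0 and D3. Cxcl1, Cxcl2 and Cxcl5 lie below 0 at D90, and of these only Cxcl1 was called. Cxcl9 and Cxcl16 differ from 0 by at most 0.32.

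The DNA just before the gene starts is shown because the NF-kappaB and interferon routes to these ligands are read there, and because members that moved together can be set side by side. RefSeq promoters of the rat assembly GRCr8 were matched for 7 of the 8 members. The array's Cxcl5 accession belongs to the gene that GRCr8 names Cxcl6. Both strands of the 250 bases before each start were searched for the kappaB consensus, the interferon-stimulated response element core GAAANNGAAA and the gamma-activated site TTCNNNGAA. Of 33469 rat promoters, 6.33% held a kappaB match, 3.41% a GAAANNGAAA match and 7.67% a TTCNNNGAA match. The last 120 bases before the start are printed for 5 genes and all 250 bases for Cxcl10, 5′ to 3′ on the strand of the gene, with kappaB and GAAANNGAAA matches in capitals.
Cxcl1, chr14:17479322-17479441, minus strand: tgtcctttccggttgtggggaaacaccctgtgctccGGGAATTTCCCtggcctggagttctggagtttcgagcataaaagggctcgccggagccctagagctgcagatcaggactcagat
Cxcl2, chr14:17467256-17467375, minus strand: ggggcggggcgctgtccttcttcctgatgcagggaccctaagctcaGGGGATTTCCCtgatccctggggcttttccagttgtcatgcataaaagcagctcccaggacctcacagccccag
Cxcl5 of the array (Cxcl6 in RefSeq), chr14:17596418-17596537, minus strand: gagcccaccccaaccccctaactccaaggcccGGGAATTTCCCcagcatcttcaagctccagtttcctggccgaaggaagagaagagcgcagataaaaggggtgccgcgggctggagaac
Cxcl11, chr14:15973608-15973727, plus strand: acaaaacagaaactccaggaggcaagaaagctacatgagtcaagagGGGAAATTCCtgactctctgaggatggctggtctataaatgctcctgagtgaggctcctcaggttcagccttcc
Cxcl9, chr14:16007046-16007165, plus strand: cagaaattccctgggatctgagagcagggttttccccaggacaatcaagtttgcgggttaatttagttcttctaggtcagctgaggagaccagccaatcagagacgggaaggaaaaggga
Cxcl10, chr14:15988816-15989065, plus strand: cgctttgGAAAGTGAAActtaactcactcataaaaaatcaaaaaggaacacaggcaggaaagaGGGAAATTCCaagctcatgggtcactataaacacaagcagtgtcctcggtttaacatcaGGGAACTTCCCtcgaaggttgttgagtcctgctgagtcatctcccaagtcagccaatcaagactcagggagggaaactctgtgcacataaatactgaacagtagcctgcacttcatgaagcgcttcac
Cxcl1, Cxcl2 and the array's Cxcl5 each held a kappaB match between 88 and 64 bases before the start, and in each the matches on both strands overlapped. Cxcl11 held a kappaB match 74 to 65 bases before the start. Cxcl10 held kappaB matches 187 to 178 and 128 to 118 bases before the start and a GAAANNGAAA match at 243 to 234. A TTCNNNGAA match was found in Cxcl11, 250 to 242 bases before the start. The 250 bases of Cxcl9 and Cxcl16 held no match to these 3 motifs. These matches describe letters in a window and were not tested for binding.

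Cxcl1, a CXCR2 ligand made early in lung inflammation, had log2 normalised intensities of 12.36, 13.20, 12.52, 12.69 and 12.17 in the control rats at D0. In the exposed rats they were 14.09, 14.54, 14.10, 14.56 and 14.26, so that every exposed rat was above every control rat. The fold change (FC) was 3.30 (log2 difference 1.72 ± 0.25, SE, adjusted p = 1.35e-06, limma, n = 5 and 5). At D3 control values were 11.93, 12.32, 12.25, 12.23 and 11.67 and exposed values 13.46, 12.74, 13.90, 14.27 and 13.05. The groups again did not overlap, although the exposed rats were more spread (SD 0.618) than at D0 (SD 0.229), with an FC of 2.65 (adjusted p = 7.49e-05).

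Cxcl2, the close relative of Cxcl1 that macrophages release, was 10.45, 11.95, 10.73, 10.79 and 9.95 in control rats at D0. The exposed rats had 12.37, 12.66, 12.32, 13.03 and 12.58, with an FC of 3.53 (log2 difference 1.82 ± 0.35, adjusted p = 2e-04) and no overlap. At D3 a single control rat, at 12.91, stood within the exposed range of 11.74 to 13.02, whereas the other control rats lay between 10.09 and 11.07. Only 1 exposed rat was therefore above all controls, and the FC was 2.42 (adjusted p = 0.0125). Without control replicate 1 or 5 at D3 the adjusted p was 0.0549 or 0.0709, and with only the arrays of D3 in the fit it was 0.26.

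Cxcl5, an epithelial neutrophil attractant, went from not measurable to measurable. In control rats its values at D0 were 2.84, 3.57, 3.24, 3.50 and 3.09, none of them well above background. All 5 exposed rats were well above background, at 6.68, 7.36, 7.73, 7.24 and 7.99. The control level is a bound on the processed signal, taken on each array as the lowest signal among probes well above background. Against it Cxcl5 was at least 5.68-fold higher on that signal, and the limma adjusted p of the fitted difference was 1.45e-12. At D3 controls were again not well above background (3.12 to 4.15) and the exposed rats had 7.40, 7.35, 7.46, 8.27 and 7.90. By the same bound this was at least 7.81-fold higher (limma adjusted p of the fitted difference 6.24e-12). The fitted size depended on background treatment, with a log2 difference at D0 of 4.15 from the deposited processed signal and of 1.63 with normexp background correction. At D3 the smallest log2 difference among the other processing settings was 1.75. The bounds therefore hold for the processed signal only.

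Cxcl3, the remaining CXCR2 ligand, was read by a pair of probes that differed. The brighter one, which was used for the gene, lay on rn4 at chr14:18767637-18767696 and the dimmer one at chr14:18786265-18786324, both on the minus strand. Their first 30 bases are shown because the probes carry the same gene name but not the same sequence, and the longest run they share over the full probes is 6 bases.
Cxcl3 brighter probe: tgaagtttatgtacagtgttgagtttgaaa
Cxcl3 dimmer probe: tctcttgtacggtgatggaggacctgcctc
On the brighter probe control rats at D0 had 15.05, 14.92, 14.90, 14.93 and 15.01 and exposed rats 15.32, 15.45, 15.43, 15.24 and 15.61. The groups did not overlap but the FC of 1.37 (adjusted p = 1.61e-06) was under the fold limit, which was just passed at D3 (FC = 1.52, adjusted p = 3.58e-09). On the dimmer probe control rats at D0 had 9.91, 10.08, 9.70, 9.48 and 9.94 and exposed rats 11.60, 11.80, 11.95, 12.04 and 11.92, an FC of 4.11 (adjusted p = 1.44e-12). At D3 the dimmer probe gave 10.23, 10.15, 10.49, 10.42 and 9.78 in control rats and 12.17, 12.08, 12.38, 12.24 and 11.45 in exposed rats, an FC of 3.60 (adjusted p = 5.05e-11). Both probes were higher in exposed rats at D0 and D3, and which of them reports the full Cxcl3 transcript was not tested. The brighter probe's D3 call was lost without control replicate 5 (log2 difference 0.58) or exposed replicate 5 (0.57).

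**Figure D2:**
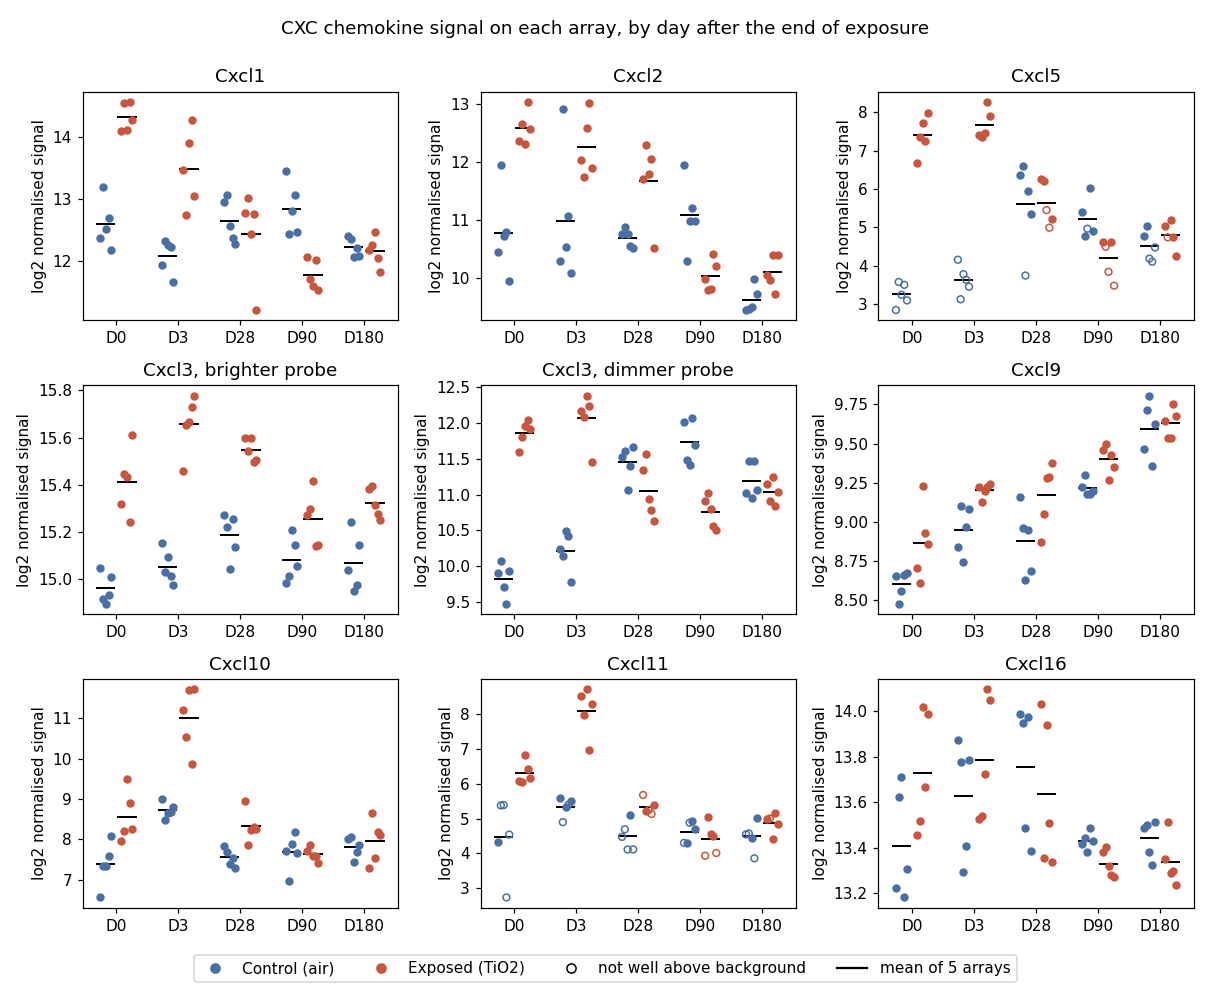
Log2 normalised signal (y axis) of each chemokine probe in each of the 50 rats, by day (x axis), with control rats in blue, exposed rats in red, open circles for values not well above background and a bar at each group mean. Exposed points lie above all control points at D0 and D3 for Cxcl1, Cxcl5, Cxcl11 and both Cxcl3 probes, and Cxcl16 points overlap at D0 and D3.

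The interferon-induced ligands Cxcl10 and Cxcl11 were over-expressed at both early days. Cxcl10, a CXCR3 ligand induced by type I and type II interferons, had control values at D0 of 6.56, 7.33, 7.33, 7.59 and 8.08. Exposed values were 7.96, 8.21, 9.50, 8.90 and 8.26, and 4 of the 5 exposed rats were above all control rats. The FC was 2.28 (log2 difference 1.19 ± 0.29, adjusted p = 0.00293). At D3 controls were 8.99, 8.49, 8.65, 8.67 and 8.80 and exposed rats 11.21, 10.54, 11.70, 9.86 and 11.72, with no overlap and an FC of 4.87 (adjusted p = 1.2e-07).

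Cxcl11, the third CXCR3 ligand, was dim. At D0 control values were 4.32, 5.37, 5.38, 2.74 and 4.54, of which only the first was well above background, and exposed values were 6.06, 6.05, 6.81, 6.41 and 6.17. The groups did not overlap, with a log2 difference of 1.83 ± 0.31 (FC = 3.55, adjusted p = 2.96e-05), which was 0.65 with normexp background correction. At D3 control values were 5.59, 4.90, 5.34, 5.40 and 5.49 and exposed values 8.49, 7.95, 8.69, 6.95 and 8.27. This was a log2 difference of 2.72 ± 0.31 (FC = 6.61, adjusted p = 1.39e-08), and 1.64 with normexp. The D3 calls of Cxcl10 and Cxcl11 held under every alternative run, and with only the arrays of D0 in the fit their D0 calls were lost (adjusted p = 0.0878 and 0.0518).

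Cxcl9, the CXCR3 ligand most tied to interferon gamma, was not called at any day. Control rats at D0 had 8.65, 8.47, 8.56, 8.66 and 8.67 and exposed rats 8.71, 8.61, 9.23, 8.93 and 8.85, a log2 difference of 0.26 ± 0.10 (adjusted p = 0.0746). At D3 controls were 8.84, 9.10, 8.74, 8.97 and 9.08 and exposed rats 9.22, 9.13, 9.20, 9.22 and 9.24. Every exposed rat was above every control at D3, yet by only 0.26 (95% confidence interval 0.06 to 0.46, adjusted p = 0.0939). The upper end of this interval is below the 1.5-fold limit of 0.58. With slide as a block Cxcl9 gave 0.26 at D0 (adjusted p = 0.0422) and 0.28 at D3 (adjusted p = 0.0449). It gave 0.34 at D28 (adjusted p = 0.0158), and all 3 were under the fold limit. Cxcl16 was likewise not called, with control values at D0 of 13.22, 13.62, 13.71, 13.18 and 13.31 and exposed values of 13.46, 13.52, 14.02, 13.67 and 13.99. Its log2 difference was 0.32 at D0 (adjusted p = 0.137) and 0.16 at D3 (adjusted p = 0.569). With slide as a block these were 0.30 (adjusted p = 3.31e-07) and 0.27 (adjusted p = 1.18e-05), still under the fold limit.

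Cxcl10 and Cxcl11 had larger differences at D3 than at D0, whereas Cxcl1 and Cxcl2 had smaller ones. However, no member's change between the days passed the limma test (2 of 8 had an unadjusted p under 0.05). The exposure effect at D3 minus that at D0 was 1.099 for Cxcl10 (adjusted p = 0.263), 0.90 for Cxcl11 (0.508), -0.32 for Cxcl1 (0.868), -0.54 for Cxcl2 (0.824) and -0.10 for Cxcl5 (0.971), with 0.678% of all genes called. The Cxcl5 value is a fitted size. Because no control rat of D0 or D3 was well above background, the order of its days is not measured. Within slides, which each held arrays of both groups, all 8 members were higher in exposed rats on 4 of 4 slides at D0 and again at D3. The within-slide differences ranged from 0.90 to 1.86 for Cxcl1 at D0 and from 0.86 to 3.07 for Cxcl10 at D3.

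**Figure D3:**
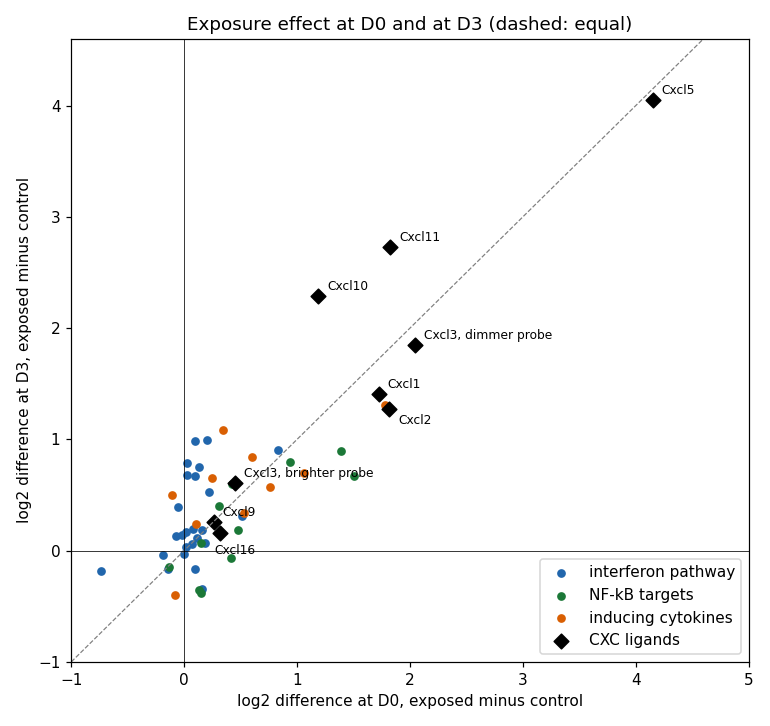
Exposed minus control difference at D3 (y axis, log2) against that at D0 (x axis, log2) for the chemokine probes (black diamonds) and for the genes of the interferon, NF-kappaB target and inducing cytokine lists (coloured points), 1 point per gene, with a dashed line where both are equal. Cxcl10 (1.19 and 2.29) and Cxcl11 (1.83 and 2.72) lie above the line and Cxcl1 and Cxcl2 below it, and no member's departure from it passed the test.

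At D28 the early differences of Cxcl1, Cxcl5 and the dimmer Cxcl3 probe had shrunk, for Cxcl5 and the dimmer Cxcl3 probe partly because control levels were higher. From D0 to D28 the mean of the dimmer Cxcl3 probe went from 9.82 to 11.45 in control rats and from 11.86 to 11.05 in exposed rats. The mean of Cxcl5 went from 3.25 to 5.60 in control rats and from 7.40 to 5.63 in exposed rats. Cxcl1 was 12.94, 13.06, 12.57, 12.37 and 12.27 in control rats and 12.78, 13.01, 12.44, 12.76 and 11.21 in exposed rats, of which 1 lay below all controls and the others within their range. The exposure effect was smaller at D28 than at D0 by 1.92 for Cxcl1 (log2 difference of effects -1.92, adjusted p = 0.000416) and by 2.44 for the dimmer Cxcl3 probe (-2.44, adjusted p = 1.9e-09). For Cxcl5 the fitted difference of effects was -4.12 (adjusted p = 1.45e-07, and -1.68 under normexp), but its size is not measured because no control rat of D0 was well above background. Of the 8 members, 2 were called lower in this test, against 1.06% of all genes.

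Cxcl2, Cxcl10 and Cxcl11 kept higher values in exposed rats at D28 that did not pass the test over all genes. Cxcl2 was 10.76, 10.87, 10.76, 10.55 and 10.51 in control rats and 11.70, 12.30, 11.79, 12.05 and 10.51 in exposed rats, of which 4 lay above all controls (log2 difference 0.98, adjusted p = 0.12). With slide as a block the difference was 1.12 (adjusted p = 0.0321), and without exposed replicate 5 it was 1.27 (adjusted p = 0.0435). Cxcl10 was 7.84, 7.69, 7.39, 7.54 and 7.30 in control rats and 8.95, 7.87, 8.23, 8.30 and 8.25 in exposed rats. The groups did not overlap, with a log2 difference of 0.77 (adjusted p = 0.139), or 0.89 with slide as a block (adjusted p = 0.0272). Cxcl11 gave 0.83 (adjusted p = 0.139), again with no overlap but with only 1 control and 2 exposed rats well above background, and the brighter Cxcl3 probe was higher by 0.36 (adjusted p = 0.000333, FC = 1.29, under the fold limit). Thus 3 of 8 members did not overlap at D28 against 3.8% of all genes, and with slide as a block 2 of 8 were called against 1.98%. Their effects at D28 were not called different from those at D0 (Cxcl2 -0.84, adjusted p = 0.514, and Cxcl11 -0.99, adjusted p = 0.312).

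At D90 Cxcl1 was lower in exposed than in control lungs. Cxcl1 was 13.44, 12.43, 12.80, 13.07 and 12.46 in control rats and 12.06, 11.70, 11.60, 12.02 and 11.53 in exposed rats. Every exposed rat was below every control rat, and Cxcl1 fell by 1.06 on the log2 scale (FC = 2.08, adjusted p = 0.0203). With only the arrays of D90 in the fit the call was lost (adjusted p = 0.0565), and it was kept in 6 of the 10 fits that left out 1 of these rats. It was lost without control replicate 1 (adjusted p = 0.122) or 4 (0.0721) and without exposed replicate 3 (0.0697) or 5 (0.0783). On all 3 slides with both groups Cxcl1 was lower in exposed rats, with differences of -1.36 to -0.67.

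The dimmer Cxcl3 probe showed the same direction at D90. Control rats had 12.01, 11.48, 11.41, 12.06 and 11.69 and exposed rats 10.91, 11.03, 10.80, 10.56 and 10.51, with no overlap (log2 difference -0.97, FC = 1.96, adjusted p = 0.000467). The brighter probe was at 0.17 at D90 (adjusted p = 0.353), so Cxcl3 had no call as a gene. Cxcl5 was 5.39, 4.76, 4.96, 6.03 and 4.91 in control rats and 4.63, 4.49, 3.84, 4.62 and 3.48 in exposed rats, 3 of which were not well above background. Its log2 difference was -0.999 (adjusted p = 0.236, and 0.0484 with slide as a block) and that of Cxcl2 was -1.04 (adjusted p = 0.217). With slide as a block the calls at D90 were Cxcl1 and Cxcl5, 2 of 8 members against 0.603% of all genes. The interferon-induced ligands had no call at D90, with log2 differences of 0.19 for Cxcl9, -0.05 for Cxcl10 and -0.21 for Cxcl11, none of them called.

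The change from D0 to D90 was tested as a difference of exposure effects, and these tests share the D0 rats with those of D28 and D180. At D90, 4 of 8 members had a smaller effect than at D0 against 1.5% of all genes, and these were Cxcl1 (-2.78, adjusted p = 2.9e-07), Cxcl2 (-2.86, adjusted p = 0.000122), Cxcl5 (-5.15, adjusted p = 3.35e-10) and Cxcl11 (-2.04, adjusted p = 0.00259). At D180, Cxcl1 (-1.79, adjusted p = 0.000729) and Cxcl5 (-3.87, adjusted p = 3.21e-07) were called, against 1.34% of all genes. The Cxcl5 values at both days are fitted sizes that rest on the same D0 controls, and 3 of 5 exposed rats of D90 were not well above background either. For Cxcl11 only 1 of 5 control rats of D0 was well above background. Over the other processing settings its D90 value was as small as -0.69, with a limma adjusted p of up to 0.0467. With slide as a block Cxcl10 was also called at D90 (-1.16, adjusted p = 0.0371) and Cxcl11 at D180 (-1.56, adjusted p = 0.0142). No member differed at 1.5-fold between exposed and control rats at D180. The brighter Cxcl3 probe was higher by 0.25 (limma adjusted p = 0.0468), under the fold limit, with every exposed rat above every control rat. The dimmer Cxcl3 probe was at -0.16 and was not called. Cxcl1 was 12.41, 12.35, 12.07, 12.21 and 12.08 in control rats and 12.18, 12.26, 12.47, 12.05 and 11.82 in exposed rats at that day, of which 1 lay above all controls and 2 below.

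Levels over the 10 groups were ordered by their means. Cxcl1 and Cxcl2 were highest in exposed rats at D0, and Cxcl5, Cxcl10, Cxcl11 and both Cxcl3 probes in exposed rats at D3. For Cxcl2, Cxcl5 and both Cxcl3 probes the step down to the next group did not exceed the larger SD of the neighbours. For Cxcl10 only the step from exposed D3 (11.01 ± 0.80, SD) to the next group, control D3 (8.72 ± 0.19), exceeded the larger SD of the neighbours. Cxcl11 had 3 such steps, after exposed D3, after exposed D0 and after exposed D28. For Cxcl1 the steps after exposed D0, after exposed D3 and before exposed D90, the lowest group, exceeded the SD. Cxcl16 had none, with all 10 means between 13.33 and 13.79. The mean of Cxcl9 went from 8.60 in control rats at D0 to 9.59 in control rats at D180 and 9.63 in exposed rats at D180. D90 and D180 were run on other slides than D0, D3 and D28, except for 1 array, so levels across that divide cannot be told apart from the slides.

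Control lungs did not keep a fixed level between days. In control rats Cxcl10 was higher at D3 than at D0 (log2 difference 1.34, adjusted p = 0.00149), the 1 member of 8 called, against 2.33% of all genes. It was lower again at D28 than at D3 (-1.17, adjusted p = 0.0215), a call lost without control D3 replicate 1, without control D28 replicate 3 or 5, or with only the arrays of these days in the fit (adjusted p = 0.0735). Control values of Cxcl5 at D28 were 6.37, 6.61, 3.74, 5.94 and 5.35, and 4 of these rats lay above every control rat of D3. The fitted log2 difference on the processed signal was 1.97 (limma adjusted p = 0.000287). Its size is not measured, because only 4 of the 5 rats of D28 and no control rat of D3 were well above background. The smallest log2 difference among the other processing settings was 0.59. The dimmer Cxcl3 probe also rose in controls between D3 and D28 (1.24, adjusted p = 2.84e-06). Members called between D3 and D28 numbered 2 of 8, against 0.639% of all genes. Between D90 and D180 no member was called by limma over all genes (0.0198% of all genes), 3 of 8 had an unadjusted p under 0.05, and Cxcl2 was lower at D180 in every control rat (-1.46, adjusted p = 0.167, and 0.0491 with slide as a block). Cxcl1 was also higher in controls at D28 than at D3, in 4 of 5 rats above every control of D3, but was not called (0.56, adjusted p = 0.474).

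Clock genes moved with the groups and days over the same arrays. In exposed against control rats Nr1d1, a repressor of the circadian clock, differed by -3.27 at D0 and -1.31 at D3, and by 3.04, 2.22 and 3.03 at the later days. Dbp, a clock output factor, differed by -1.95, -2.49, 3.27, 3.36 and 2.97 at these days, all of them called. Arntl, the clock activator, named after its values were seen, went the other way, with 1.26, 1.67, -1.47, -1.58 and -1.09. In control rats Dbp was lower at D28 than at D3 by 4.50 (log2 difference -4.50). The hour at which lungs were taken is not given in the sources used here, and the part of the clock genes in the chemokine values was not tested.

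**Figure D4:**
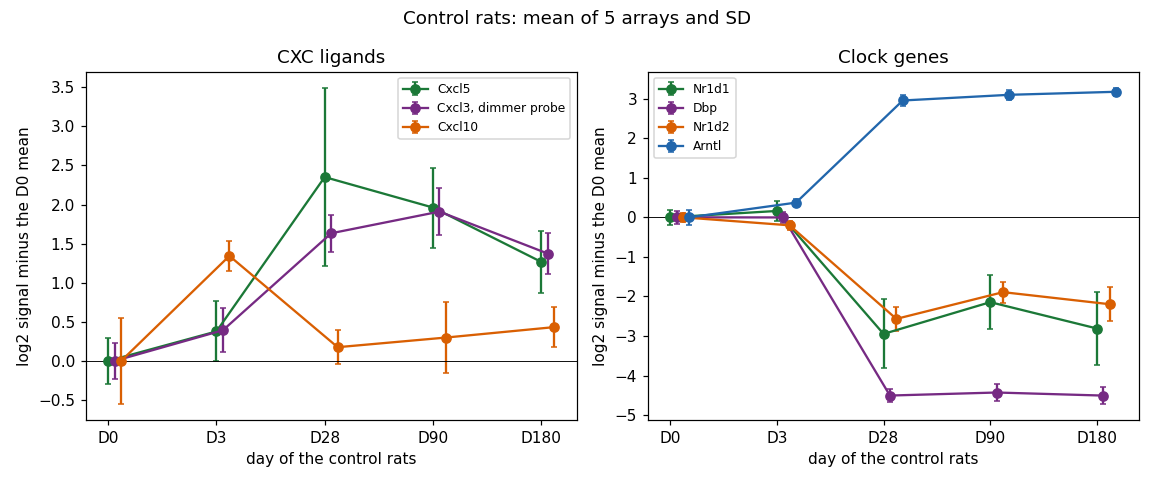
Mean log2 level in the 5 control rats of each day minus that at D0 (y axis, error bars show SD) over the days after exposure (x axis), for the chemokine probes that changed between control days and for clock genes. Cxcl5 and the dimmer Cxcl3 probe step up between D3 and D28 while Dbp, Nr1d1 and Nr1d2 step down and Arntl steps up, and Cxcl10 is highest at D3.

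Cells and signals that these ligands act on were read from chosen gene lists. Of the 4 receptors tested, Cxcr6, the receptor of Cxcl16, was over-expressed at D0 (log2 difference 0.80, adjusted p = 0.000603) and D3 (0.75, adjusted p = 0.0018). Cxcr3, the receptor of Cxcl9, Cxcl10 and Cxcl11, was higher by 0.50 at D0 (adjusted p = 0.0024) and 0.55 at D3 (adjusted p = 0.00119), under the fold limit. Cxcr2 was at 0.37 (adjusted p = 0.105) and 0.45 (adjusted p = 0.0424), also under the limit, and Cxcr1 at -0.21 (adjusted p = 0.356) and -0.11 (adjusted p = 0.693). Cxcr7, a scavenger receptor of Cxcl11 and Cxcl12, was outside this count because the list held its newer name Ackr3, and it fell by 0.63 at D0 (adjusted p = 0.000809). Of the proteases that shed Cxcl16, Adam17 was higher by 0.51 at D0 (adjusted p = 2.82e-07), under the fold limit, and Adam10 was at 0.08. Among 6 other CXC ligands 1 was called at D0, against 4.28% of all genes called in either direction. It was the platelet chemokine Pf4 (0.62, adjusted p = 0.000117).

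Part of the neutrophil marker list rose at D0, with 4 of 14 markers called higher. Over all genes 2.77% were called higher and 1.51% lower at that day. The 3 with the largest changes were Cd177, a neutrophil surface protein (2.43, adjusted p = 5.66e-16), S100a9 (1.69, adjusted p = 1.35e-10) and S100a8 (1.37, adjusted p = 7.96e-09), the subunits of calprotectin. The summed marker level on the log2 scale was 15.07 to 15.62 in control rats and 16.75 to 17.21 in exposed rats at D0. It was 15.06 to 15.75 and 16.73 to 17.16 at D3, 15.08 to 15.72 and 15.89 to 16.43 at D28, 15.00 to 15.42 and 15.35 to 15.91 at D90, and 14.87 to 15.42 and 15.41 to 15.76 at D180. The sum is of linear levels and so follows the brightest genes. At D0 the other 10 markers were not called, among them Csf3r (0.18), Mmp9 (-0.05), Mmp8 (-0.27) and Fpr1 (-0.31). At D90 Cd177 was called higher (0.66, adjusted p = 0.0174), whereas Csf3r (-0.05), Fpr1 (-0.16), Mmp9 (-0.24) and Mmp8 (-0.31) were not called. The granule genes Ltf, Elane and Mpo were well above background on 0, 2 and 10 of 50 arrays. Ngp and Camp, also granule genes, were so on 28 and 50, and Mmp9 and Mmp8 on 49 and 50. T and NK cell markers had 3 of 17 calls at D0, Icos, a costimulatory receptor (1.06, adjusted p = 2.11e-07), Cd3g (0.67, adjusted p = 1.18e-05) and Cd5 (0.66, adjusted p = 0.000361), with summed levels of 13.95 to 14.38 in control and 14.15 to 14.41 in exposed rats. By limma, macrophage markers had 0 of 9 calls at D0 (4 with an unadjusted p under 0.05). Msr1 (0.46, adjusted p = 0.00114) and Itgax (0.52, adjusted p = 0.00122) missed only the fold limit. Alveolar type II markers, which were well above background on all 50 arrays, had 0 of 9 (5 with an unadjusted p under 0.05). These 5 also missed only the fold limit: Sftpa1 (0.48, adjusted p = 2.17e-06), Lamp3 (0.58, 4.59e-05), Sftpd (0.34, 0.000289), Slc34a2 (0.32, 0.00548) and Etv5 (-0.36, 2.82e-05). Of 5 endothelial markers 1 was called lower at D0, against 1.51% of all genes. It was the angiopoietin receptor Tek (-0.59, adjusted p = 8.11e-05). The list median was -0.48, with summed levels of 16.76 to 16.86 in control and 16.23 to 16.77 in exposed rats. Of 6 airway epithelial markers 1 was called lower, the cytochrome P450 gene Cyp2f4 (-0.73, adjusted p = 1.15e-07). The others were not called, with Bpifa1 at 0.77, Scgb3a2 at 0.49, Foxj1 at 0.00, Scgb3a1 at -0.11 and Scgb1a1 at -0.27. Summed levels of this list were 18.03 to 18.49 in control and 18.03 to 18.48 in exposed rats. Of 8 glucocorticoid-induced genes 2 were called lower at D0, against 1.51% of all genes. They were the phosphatase Dusp1 (-1.07, adjusted p = 0.00707) and the kinase Pdk4 (-1.15, adjusted p = 0.0484, well above background on 3 control and 1 exposed arrays). The part of cell numbers in the chemokine differences was not tested.

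Some inducers of the neutrophil attractants were over-expressed at the same days. Of 10 cytokines 4 were called higher at D0 and 3 at D3, with list medians of 0.44 and 0.61. Over all genes 2.77% were called higher at D0 and 1.98% at D3. Tnf, a main activator of NF-kappaB, rose by 1.77 at D0 (adjusted p = 4.76e-08) and by 1.31 at D3 (adjusted p = 3.23e-05), and Csf2, the growth factor GM-CSF, rose by 0.76 at D0 (adjusted p = 5.59e-05). The other calls at D0 were Osm (0.61, adjusted p = 0.00125), named after its values were seen, and Il6, which no array of either group measured well above background. Of 11 NF-kappaB targets 3 were called at D0, the mitochondrial superoxide dismutase Sod2 (1.51, adjusted p = 8.15e-15), the RNase Zc3h12a, which degrades inflammatory transcripts (1.39, adjusted p = 8.5e-16), and Birc3, an inhibitor of apoptosis (0.94, adjusted p = 2.39e-08). At D3 there were 4, and none from D28 on.

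No gene of the interferon list was called at D0 and some were at D3. Of its 25 genes 0 were called by limma at D0 (4 with an unadjusted p under 0.05, list median 0.08). Over all genes 4.28% were called in either direction at that day. Cd274 (0.51, adjusted p = 0.012) and Stat2 (0.16, adjusted p = 0.0394) missed only the fold limit. Cxcl10 and Cxcl11 were already over-expressed at D0. At D3, 6 of 25 were called higher, against 1.98% of all genes, with a list median of 0.17 beside -0.01 for all genes. Of these, named after their values were seen, the antiviral GTPase Mx1 rose by 0.999 (adjusted p = 9.15e-06), the antiviral protein Rsad2 by 0.98 (adjusted p = 3.47e-06), the transcription factor Irf7 by 0.79 (adjusted p = 8.33e-05) and Isg15 by 0.68 (adjusted p = 0.0062). Irf1, a transcription factor induced by interferon gamma, was at -0.03 (adjusted p = 0.906). Ifng and Ifnb1, the interferons themselves, were not well above background in either group at D0 or D3.

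Over the 50 arrays, with each gene centred on its slide mean, the genes most like each member were found by Pearson correlation, as a description across arrays that share the exposure and the days. Cxcl1 was most like Tnf (0.895), Bcl3 (0.872) and Zc3h12a (0.834), and Cxcl2 most like Osm (0.82), Nfkbiz (0.805) and Tnf (0.804). Cxcl5 was most like Noxo1 (0.951), Cx3cl1 (0.933) and Car8 (0.93). The brighter Cxcl3 probe was most like Brms1l (0.929), Pla2g1b (0.923) and Cfi (0.922), whereas the dimmer one was most like Tmem171 (0.941), Noxo1 (0.922) and Cxcl5 (0.913), and the probes correlated with each other at 0.601. Cxcl10 was most like Ifi27l2b (0.95), Mx1 (0.936) and Lgals3bp (0.935), and Cxcl11 most like Defb52 (0.921), Ms4a6a (0.887) and Cxcl10 (0.886). Cxcl9 had weaker neighbours, with Sez6l2 (0.777), Tekt3 (0.735) and Prodh2 (0.734), and its correlation with Cxcl1 was -0.17. Among the members themselves the closest pair of genes in the interferon-induced set was Cxcl10 and Cxcl11 (0.886), and Cxcl1 was close to Cxcl2 (0.785) and Cxcl5 (0.761). Cxcl16, of neither set, correlated with the dimmer Cxcl3 probe at 0.836 and with Cxcl5 at 0.796. Cxcl16 was most like Tmem56 (0.88), Car8 (0.871) and Tmem171 (0.852).

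**Figure D5:**
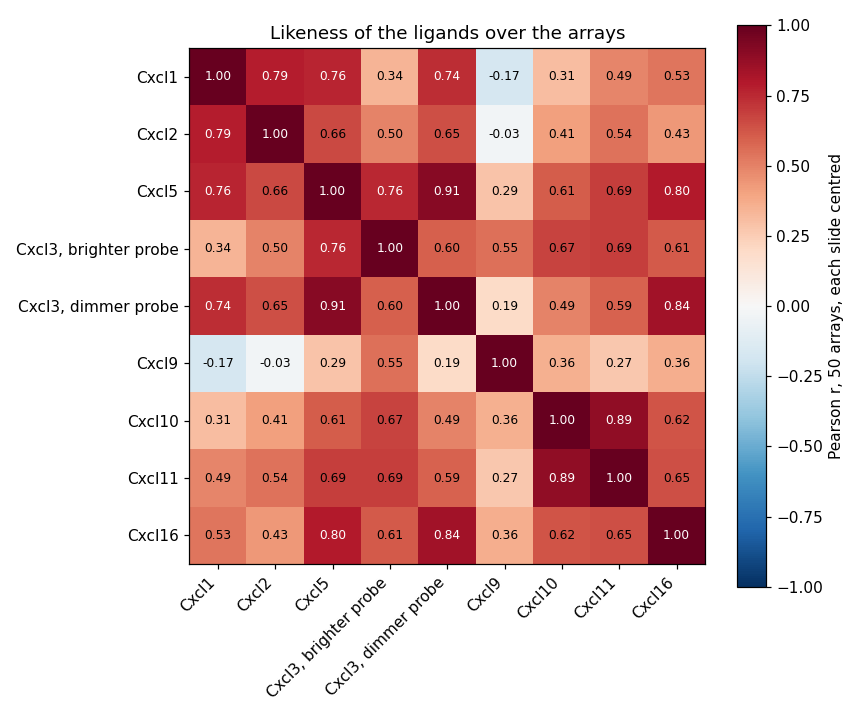
Pearson correlation between each pair of chemokine probes over the 50 arrays, after centring on slide means, as a colour scale from -1 (blue) to 1 (red) with the value in each cell, as a description with no test. Cxcl10 with Cxcl11 (0.886) and Cxcl1 with Cxcl2 (0.785) are close pairs, as are Cxcl16 with the dimmer Cxcl3 probe (0.836) and with Cxcl5 (0.796), and Cxcl9 with Cxcl1 is at -0.17.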

How the data were processed

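Lung lobe RNA (100 ng, Cy3) was hybridised to 1-colour Agilent rat arrays and read with Feature Extraction 11.0.1.1, per the labels. The deposited scanner files gave the processed signal, an intensity already corrected for background by the authors' scanner software. Flagged spots were left out, log2 was taken, spots of a probe were averaged and arrays were quantile normalized. A probe was kept where 5 or more arrays read it above the 95th percentile of their 308 negative controls (29549 of 30367), and the probe with the highest mean stood for a gene. Probe positions are rn4 as the files give them. Group means were fitted over all 50 arrays with limma 3.58.1 in R 4.3.3, with Benjamini-Hochberg adjustment over 25208 genes, and a call needed 1.5-fold and an adjusted p under 0.05. The fit was tested on simulated data. Members, gene lists and tests were chosen with earlier results of these data known. Named from each list were up to 3 genes with the largest change among those called at D0, every receptor, and the 3 genes most like each member. The deposited value table, linear intensity values of the authors that rank the spots as the median scanner signal does (column medians 407.6 to 411.3, centring of genes not seen, normalization method not stated with it), served as an alternative, beside other scaling, background, filter, probe, slide and replicate settings. Rats of a group were separate animals, and no arrays were duplicates. Same-numbered control and exposed arrays did not deviate together (correlations -0.339 to 0.449), so numbers were not used as pairs.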

Additional observations from a re-analysis of the deposited data

Results flagged for a closer look

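Exposure effects that differed from those at D0 by the test of the difference itself were flagged. For Cxcl1 the difference was -1.92 at D28, -2.78 at D90 and -1.79 at D180 (log2 scale). For Cxcl5 it was -4.12, -5.15 and -3.87, and for the dimmer Cxcl3 probe -2.44, -3.01 and -2.20 at these days, the sizes for Cxcl5 resting on D0 controls not well above background. Cxcl2 (-2.86) and Cxcl11 (-2.04) were flagged at D90, the size for Cxcl11 resting on D0 controls of which only 1 of 5 was well above background. All of these share the D0 rats. Within the 10 groups, no sample of any chemokine probe stood far enough from its group to be flagged, in 90 groups of 5 tested.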

How the results depend on the processing

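The depth of these values is limited by 5 arrays a group and, for Cxcl5 and Cxcl11, by signals near background. Over the other processing settings 628 of 647 values of single chemokines (exposed against control, and other comparisons where called) kept their direction and side of the threshold, the stricter filter, no filter and the replicate block among the settings that changed no call. With the replicate block the members called stayed at 5, 6, 0, 1 and 0 from D0 to D180, and at 0, 2, 4 and 2 for the effects at D3, D28, D90 and D180 against D0. It could not be fitted between days of control rats. With slide as a block the calls were 2 at D28, 2 at D90, 5 and 3 for the effects at D90 and D180 against D0, and 1 between control D180 and D90. With no fold limit they were 6 at D0, 1 at D28, 1 at D180 and 2 between control D3 and D0. With only the arrays of the days compared they were 3 at D0, 0 at D90, 1 between control D28 and D3 and 1 between control D180 and D90. In that setting the D3 call of Cxcl2 was lost as well. For the effect at D3 against D0 there was 1 call under normexp and 1 with the value table. Leaving out single rats gave 0 to 1 call at D28, 0 to 1 at D90, 1 to 2 between control D3 and D0 (2 without control D0 replicate 2 or 3) and 1 to 2 between control D28 and D3. The D3 call of Cxcl2 was lost without control D3 replicate 1 or 5. That of Cxcl3 was lost without control or exposed D3 replicate 5. Signs that turned were of differences not called. Cxcl5 at D28 was -0.0468 under 75th percentile scaling, -0.0506 under normexp and -0.0585 with the value table, and -0.43 to 0.28 without single rats. Cxcl9 at D180 was -0.00416 under normexp and -0.0138 with the value table, and -0.0224 to 0.0906 without single rats. The mean of the Cxcl3 probes was -0.0188 at D28 and -0.40 at D90. Without single rats Cxcl1 ran from -0.34 to 0.11 at D28 and -0.15 to 0.0162 at D180, and Cxcl10 from -0.23 to 0.0798 at D90 and -0.0288 to 0.31 at D180. The cause was not tested. Leaving out the pair of D0 arrays with few distinct signals and fitting the dimmer Cxcl3 probe were chosen after seeing the data.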
